A study of Sus scrofa with 8 samples.

Results

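Lung progenitor organoids (LPO) made from pig (Sus scrofa) pluripotent stem cells were compared with the pluripotent stem cells (PSC) that the protocol starts from, which gives the net change in messenger RNA over the whole differentiation. The comparison uses 4 of the 8 libraries of the series, 2 of LPO and 2 of PSC, and was made across all genes: 19346 of the 25578 genes in the deposited table had enough counts to be tested. The other 4 libraries belong to the stages in between, definitive endoderm (DE, the inner germ layer of the embryo) and anterior foregut endoderm (AFE, its front end, where the lung bud forms). They entered the scaling, the filter on low counts and the estimate of the spread, and their levels are given below as a description. The labels give each library a stage and a number, and the deposited table heads the PSC columns EPSC, an abbreviation that the sources used here do not spell out. The pig line, the medium, the days in culture and any selection of cells are not given in the sources used here, and whether both libraries of a stage stem from 1 culture is not said. Every p-value therefore reflects only the spread of these samples, which may be technical.

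Pluripotent cells are held in their state by a small network of transcription factors around POU5F1, divide fast and can form every tissue of the body. On the way to lung, cells first become endoderm, then foregut, and a ventral patch of foregut switches on NKX2-1, the homeobox factor that opens lung and thyroid development. The tips of the growing airway tree carry progenitors with SOX9 and SOX2, while the mesoderm around them supplies retinoic acid, WNT, BMP and FGF signals. Organoids are small 3-dimensional cell aggregates, and a bulk library sums over every cell type in them.

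Library totals were 63210158 and 62929453 counts in LPO, against 42251431 and 36004372 counts in PSC, where about 4 counts stand for 1 read pair. The library floor of 3 read pairs (12 counts) is 0.150 and 0.151 counts per 1e6 counts (CPM) in LPO, against 0.298 and 0.357 CPM in PSC. Unless FPKM is named, levels are CPM after TMM scaling, given for each library, and every adjusted p is a Benjamini-Hochberg value of edgeR's quasi-likelihood test over the 19346 genes, with a gene called when it is under 0.05. With 2 libraries a side, the smallest p of an exact permutation test is 0.333. For a gene at 0 counts in both libraries of a stage the fold is a lower bound against the floor ("at least"), and for 1 to 3 read pairs over a stage it is a ratio with its 95% counting interval. Bounds and intervals cover counting error only.

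The transcriptomes at the ends of the protocol differed at most genes. Of the 19346 genes, 13602 (70.3%) were called, 8031 (41.5%) higher in LPO and 5571 (28.8%) lower. By the fitted values, 3132 of the called genes rose and 1003 fell by 10-fold or more. These counts include genes at 0 counts in a stage, whose fitted value is no measured fold. Of the tested genes, 2170 were at 0 counts in PSC only and 427 in LPO only. The median log2 change of all tested genes was 0.49, or 0.20 with genes at 0 counts in a stage set at their bound, and the middle 50% lay between -1.12 and 2.50. With so many genes called, each group below is read against these shares and this median. The split depends on scaling: 6435 rose and 6825 fell when libraries were centred on their median gene, and 11260 rose and 3987 fell when FPKM was scaled to equal sums, with a median shift per gene of -0.49 and 0.58 on the log2 scale. In LPO the top 100 genes took 22.8% and 22.9% of all counts, against 29.2% and 30.3% in PSC. Change also moved with transcript length: in 10 equal bins, genes in the shortest bin had a median log2 change of -0.15 and those in the longest 1.03. Centred on genes of like length, the medians of 3 of the 47 lists below turned sign (NODAL signalling, FGF and ERK, and DNA methylation). The part of length in single genes was not tested.

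**Figure D1:**
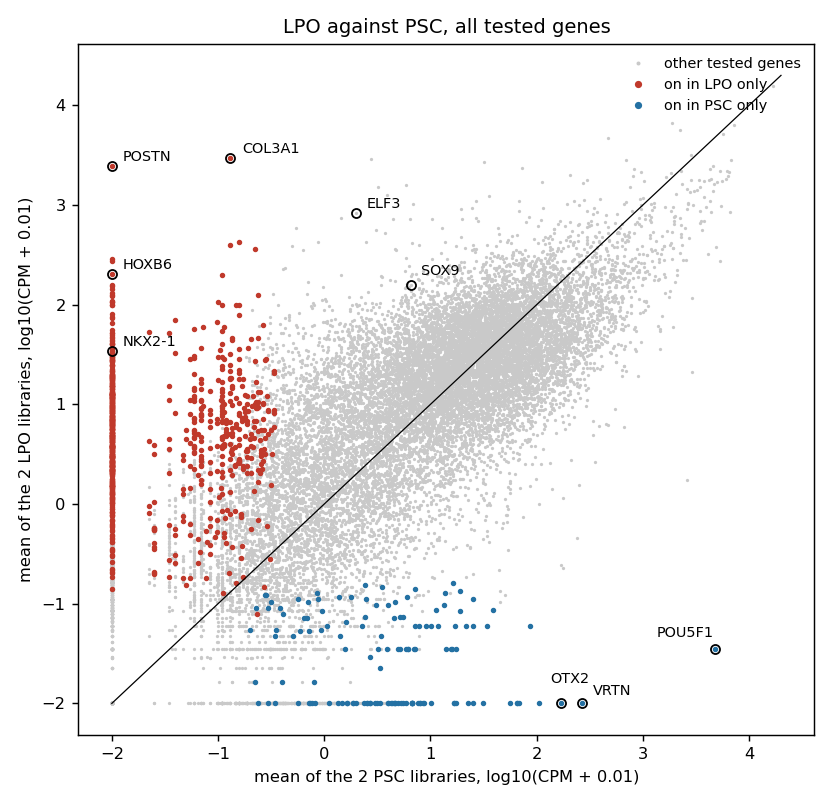
Mean CPM of the 2 LPO libraries (vertical, log10 of CPM + 0.01) against that of the 2 PSC libraries (horizontal) for the 19346 tested genes, with the line of equal level. Red and blue points are genes on in LPO only and in PSC only. NKX2-1, POSTN and HOXB6 lie on the left edge with 0 counts in PSC, and VRTN and OTX2 on the bottom edge with 0 counts in LPO.

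At the 4 marker genes of the end stages the libraries did not overlap, which also held for 86.2% of all tested genes. ELF3, an ETS factor of lung and gut epithelium (chromosome 10, 24237875 to 24243058, on a genome build that the labels do not name), had 810.3 and 839.5 CPM in LPO, against 1.39 and 2.61 CPM in PSC (419-fold higher, adjusted p = 6.1e-08, log2 change 8.71 with SE 0.24). SOX9, a factor of the lung bud tip that cartilage also uses (chromosome 12, 8642158 to 8647315), had 154 and 164 CPM in LPO, against 6.50 and 6.54 CPM in PSC (24.4-fold higher, adjusted p = 2.2e-07, log2 change 4.61 with SE 0.17). NKX2-1 (chromosome 7, 63487807 to 63491575) had 33.7 and 34.2 CPM in LPO, against 0 in both PSC libraries (at least 104-fold higher, adjusted p = 8e-07). All 3 markers of the organoids were thus high in both LPO libraries, and NKX2-1 had no count at all in PSC. POU5F1, the core factor of pluripotent cells (chromosome 7, 23564659 to 23570600), had 0 and 0.0504 CPM in LPO, against 4453 and 5156 CPM in PSC (lower, ratio 190492 with a 95% counting interval of 34189 to 7524120.0, adjusted p = 3.3e-08). In mean FPKM, POU5F1 stood at 3260.3 in PSC, 256 in DE, 0.580 in AFE and only 0.0200 in LPO, and ELF3 in the same order at 0.675, 32.4, 235 and 372. NKX2-1 was at 0 in PSC and DE, 7.78 in AFE and 18.8 in LPO, whereas SOX9 had 1.62 in PSC, 0.845 in DE, 3.85 in AFE and then 52.7 in LPO. Over the 8 libraries, the genes whose log2(FPKM + 1) ran most like NKX2-1 were CYP26B1, CDKN2A and MEIS1 (Pearson r = 0.9996, 0.9991 and 0.9987), and those most like SOX9 were PLK2, MAP3K8 and AGR2 (r = 0.9993, 0.9990 and 0.9988). EBF4, CCDC152 and NUPR1 ran most like ELF3 (r = 0.998, 0.997 and 0.995) and PAK6, ALDH7A1 and SUMO2 most like POU5F1 (r = 0.997, 0.996 and 0.996). The 8 libraries come from 4 stages, so each r rests on few independent points.

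**Figure D2:**
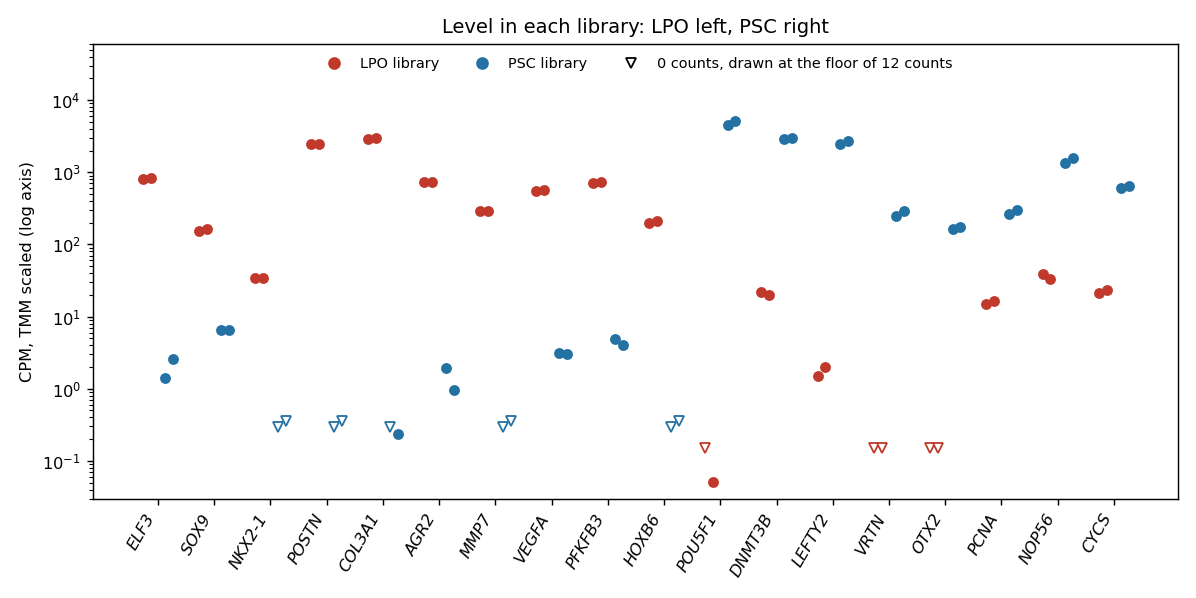
CPM in each library (log axis) for the markers and further genes of the text, with LPO libraries in red on the left and PSC libraries in blue on the right of each gene. Open triangles stand for 0 counts and are drawn at the floor of 12 counts. ELF3 sits at 810.3 and 839.5 CPM in LPO and at 1.39 and 2.61 CPM in PSC, and for none of the 18 genes drawn, chosen with their values known, do the stages overlap, against no overlap at 86.2% of all tested genes.

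A gene was taken as on in one end stage only when it reached 1 FPKM or more in both libraries of that stage and had at most 12 counts in each library of the other. By this rule 792 genes were on in LPO only and 145 in PSC only, of 12576 genes on in LPO and 10111 on in PSC, and 9426 genes were on in both. The rule is loose for short genes, where few counts make 1 FPKM: 10 of the 792 and 7 of the 145 also reached 1 FPKM in both libraries of the other stage, and 3 genes fall in both sets. These sets were chosen by the contrast itself, so their values are a description. On the LPO side 437 of the 792 had 0 counts in both PSC libraries, and on the PSC side 61 of the 145 had 0 counts in both LPO libraries. Of the 792 genes 764 passed the filter on low counts and were tested, and of the 145 genes 139. Most were low, with a median of 2.93 FPKM for the LPO set and 2.76 FPKM for the PSC set, and 235 and 44 genes reached a mean of 5 FPKM. At the edge of the rule, ZNF404 (1.15 and 1.00 FPKM in LPO, 0 counts in PSC) was just inside, and NFATC1 (0.98 and 1.12 FPKM in LPO, 7 and 4 counts in PSC) just outside. PSC libraries are shallower than LPO libraries, so the same 12 counts are a higher level in PSC.

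The genes on in LPO only were led by matrix and secreted proteins. COL3A1, a fibrillar collagen chain of soft tissue, had 2922 and 2946 CPM in LPO, against 0 and 0.238 CPM in PSC. Periostin (POSTN), a matrix protein of fibroblasts and healing tissue, had 2482 and 2459 CPM in LPO, against 0 in both PSC libraries (at least 7553-fold higher). Next in mean FPKM came osteopontin (SPP1), with 309.8 FPKM, the epithelial metalloprotease MMP7 (276 FPKM), the monocyte chemokine CCL2 (169.6 FPKM) and HOXB6 (162 FPKM). CYP26B1, which breaks down retinoic acid, had 422 and 426 CPM in LPO, against 0.298 and 0 CPM in PSC. STRA6, the receptor that takes up retinol, had 126 and 123 CPM in LPO, against 0 in both PSC libraries. The epithelial laminin chain LAMB3 had 156 and 160.0 CPM in LPO, against 0 in both PSC libraries. The zinc-finger factor ZIC4 had 142 and 147 CPM in LPO, against 0 in both PSC libraries. COL6A3, a collagen of the cell surface meshwork, had 269 and 282 CPM in LPO, against 0 in both PSC libraries. EMP1, an epithelial membrane protein, had 118 and 127 CPM in LPO, against 0 in both PSC libraries. The neutrophil chemokine CXCL8 had 153 and 151 CPM in LPO, against 0 in both PSC libraries. The adhesion molecule VCAM1 had 127 and 132 CPM in LPO, against 0 in both PSC libraries. In each of these genes the LPO libraries lay close together, within 1.1-fold, while PSC had 0 counts or at most 3 read pairs. OST4, a small subunit of the complex that puts sugars on proteins, also entered the set, with 62.1 FPKM in LPO and 0 counts in PSC, yet at 85.4 FPKM in DE and 101 FPKM in AFE.

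The genes on in PSC only were led by POU5F1, followed by VRTN, a gene known in pigs for its effect on the number of vertebrae, with 0 in both LPO libraries, against 248 and 289.8 CPM in PSC (at least 1789.7-fold lower). OTX2, a head and epiblast homeobox factor, had 0 in both LPO libraries, against 164 and 175 CPM in PSC (at least 1126-fold lower). PRDM14, a regulator of pluripotency and germ cells, had 0 in both LPO libraries, against 64.8 and 66.4 CPM in PSC (at least 436-fold lower). None of these 3 genes left a single count in the organoids. The secreted synapse organiser CBLN1 had 0 in both LPO libraries, against 67.6 and 68.8 CPM in PSC. The calcium sensor VSNL1 had 0 in both LPO libraries, against 54.9 and 58.3 CPM in PSC. The carboxypeptidase-like protein CPXM2 had 0 in both LPO libraries, against 72.5 and 57.6 CPM in PSC. FGF8, a growth factor of gastrulation, had 0 in both LPO libraries, against 16.1 and 16.9 CPM in PSC. GDF3, a relative of NODAL, had 0 and 0.0504 CPM in LPO, against 17.7 and 17.1 CPM in PSC. The T-box factor EOMES, which opens endoderm formation, had 0 in both LPO libraries, against 28.8 and 34.0 CPM in PSC. It peaked at the endoderm stage, with 9.21 FPKM in PSC, 17.4 in DE and 0 in AFE and LPO. The small nucleolar RNAs SNORA10, SNORD38B and SNORD100 are also in the set, but each lies inside a ribosomal protein gene with far more counts, so their values are uncertain. CRIP3 overlaps a gene on the opposite strand that holds 21.7% of its count.

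Most genes on in one end stage only did not reach the threshold of 1 FPKM at the stages in between. Of the 792 LPO genes 564 (71.2%) were on in neither DE nor AFE, 99 were on in AFE but not DE, 51 in DE but not AFE, and 78 in both. Of the 145 PSC genes 92 (63.4%) were on in neither, 32 in DE but not AFE, and 3 in AFE but not DE. Fewer were off in both DE and AFE: 152 of the 792 LPO genes (19.2%) and 40 of the 145 PSC genes (27.6%). Missing 1 FPKM at these stages thus does not mean that a gene was absent there. Across all called genes, 71.0% of those higher in LPO had their highest stage mean in LPO, and 68.8% of those lower in LPO had it in PSC. The call itself keeps the lower end stage from being the highest, so these shares are partly set by it. Among genes not called, 29.9% had their highest mean in LPO and 22.4% in PSC. By the Gene Ontology terms in the deposited table, 118 of 553 annotated genes of the LPO set (21.3%) and 20 of 87 of the PSC set (23.0%) carried an extracellular term, against 5.83% of all genes on in LPO and 4.33% of all genes on in PSC. DNA-binding transcription factors made up 16.8% of the LPO set, against 6.38% of all genes on in LPO, and mitochondrial genes 2.17%, against 8.83%. In the PSC set 10.3% were such factors, against 4.88%, and 0 of 87 annotated genes were mitochondrial, against 10.1%. Some genes on in one end stage only sat side by side: 118 of the 792 (14.9%) lay in 51 runs of neighbouring genes for LPO, and 13 of the 145 (8.97%) in 6 runs for PSC. A larger set holds more neighbours by chance, and that share was not worked out. The LPO and PSC shares can therefore not be compared. The longest run was HOXB4 to HOXB13 with 7 genes (chromosome 12, 24829452 to 24950714), and others held CDKN2B with CDKN2A and STRA6 with ISLR and ISLR2.

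POU5F1 and NANOG fell, while SOX2 and some other genes of the pluripotency list rose. Of 22 tested pluripotency genes 13 fell and 5 rose, with a median log2 change of -1.89, or -1.59 with members at 0 counts set at their bound. NANOG, partner of POU5F1, had 0.0499 and 0.201 CPM in LPO, against 46.0 and 44.1 CPM in PSC (353-fold lower, adjusted p = 6.5e-06). ZIC2 fell as well (8.33-fold lower), as did MYCN (11.4-fold lower), a factor of growing cells, with 10.03 and 9.10 CPM in LPO, against 112 and 106 CPM in PSC. SOX2 moved the other way: it had 30.3 and 30.7 CPM in LPO, against 6.10 and 4.43 CPM in PSC (5.78-fold higher, adjusted p = 2e-05), with 4.97 FPKM in PSC, 0.0800 in DE, 5.32 in AFE and then 38.2 in LPO. TBX3 (249.9-fold higher), KLF4 (2.95-fold higher), TFCP2L1 (7.15-fold higher) and SALL4 also rose, and each of these is used in other tissues too. SALL4 had 5.35 and 4.72 CPM in LPO, against 3.596 and 1.604 CPM in PSC (log2 change 0.94, adjusted p = 0.035), and it was no longer called when any 1 library other than the first of PSC was left out. LIN28A, which blocks let-7, had 0.0748 and 0.113 CPM in LPO, against 3.97 and 5.23 CPM in PSC (47.8-fold lower), whereas its paralog LIN28B had 4.04 and 4.12 CPM in LPO, against 3.82 and 5.70 CPM in PSC and was not called.

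Genes of NODAL signalling, the TGF-beta family pathway that keeps primed pluripotent cells undifferentiated and specifies endoderm, moved both ways. Of 16 tested genes 7 rose (43.75%) and 7 fell (43.75%), against 41.5% and 28.8% of all genes, so the share that rose is near that of all genes. The median log2 change of 0.28 turned to -0.20 with median centring. LEFTY2, a NODAL antagonist and target, had 1.496 and 2.00 CPM in LPO, against 2461 and 2694 CPM in PSC (1472-fold lower, adjusted p = 1.2e-07). NODAL itself had 0 and 0.189 CPM in LPO, against 51.5 and 39.4 CPM in PSC (473-fold lower), a value that is uncertain because an unnamed gene on the opposite strand overlaps it with more counts. FST, which traps activin, fell 159-fold (adjusted p = 1.8e-07), CER1 fell 58.5-fold, and FOXH1, the cofactor of SMAD2, had 0.187 and 0.227 CPM in LPO, against 44.8 and 42.9 CPM in PSC (209.8-fold lower). SMAD3, a transducer of activin and TGF-beta, had 192 and 198 CPM in LPO, against 11.96 and 10.9 CPM in PSC (17.1-fold higher, adjusted p = 4.8e-08). The receptors ACVR1B (4.10-fold higher) and ACVR2A (1.81-fold higher) and the ligand subunit INHBA (21.4-fold higher) rose.

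Several families switched their main member between the stages, which shows best as a share of summed FPKM. Of 34 paralog pairs looked at, 15 moved the same way, 11 had opposite calls, 2 held a gene that was not called and 6 lacked an entry. Opposite calls do not all mean a switch of the main member, and their share among other pairs of genes was not worked out. DNMT3B, the methyltransferase that sets DNA methylation in the early embryo, had 22.2 and 20.1 CPM in LPO, against 2897 and 2958 CPM in PSC (138-fold lower, adjusted p = 1.2e-08). DNMT3A, its relative of later tissues, had 48.3 and 44.3 CPM in LPO, against 37.3 and 23.1 CPM in PSC (log2 change 0.61, adjusted p = 0.033), and was not called without LPO replicate 1, LPO replicate 2 or PSC replicate 2. DNMT3A made up 84.0% of the pair in LPO, against 2.42% in PSC. Of 13 tested genes that set, read or remove DNA methylation 6 rose (3 without LPO replicate 1, LPO replicate 2 or PSC replicate 2) and 4 fell, and the median log2 change of 0.30 turned to -0.19 with median centring. These shares are near those of all genes. CLDN6, the claudin of embryonic epithelium, had 63.0 and 60.3 CPM in LPO, against 1313 and 1472 CPM in PSC, with an overlapping neighbour at 11.3% of its count, and CLDN4 had 246 and 247 CPM in LPO, against 52.1 and 50.4 CPM in PSC, which put CLDN4 at 79.5% of that pair in LPO, against 3.45% in PSC. KRT19 made up 63.4% of its pair with KRT18 in LPO, against 8.65% in PSC. The lactate dehydrogenase pair moved further in the direction it had: LDHA was 99.8% of LDHA and LDHB in LPO, against 90.9% in PSC. Other switches were IGF2BP2 over IGF2BP1 (65.0% in LPO, against 19.3% in PSC) and TEAD3 over TEAD4 (92.2%, against 41.6%). E-cadherin (CDH1) stayed the larger member of its pair with N-cadherin (CDH2), at 88.1% in LPO, against 94.6% in PSC. Their calls, 1.39-fold lower and 1.69-fold higher, are small, and that of CDH1 turned to a log2 change of 0.32 with FPKM scaled to equal sums.

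Other steps of the let-7 pathway, by which a small RNA and its blocker LIN28 time development, were mixed. Of 16 tested genes 6 rose (37.5%) and 8 fell (50.0%), against 41.5% and 28.8% of all genes. The median log2 change of -0.66 turned to 0.13 under equal FPKM sums. The processing genes DROSHA (4.24-fold lower), DGCR8 (4.49-fold lower) and DICER1 (2.84-fold lower) fell together, and DROSHA is overlapped by a neighbour with 31.3% of its count. HMGA2, a let-7 target, had 15.3 and 16.9 CPM in LPO, against 0.694 and 0.921 CPM in PSC (20.0-fold higher), against a fall of its relative HMGA1 (4.01-fold lower). Mature let-7 was not analysed here.

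Endoderm factors were mixed, with 8 of 17 higher and 5 lower and a median log2 change of 0.21, or 0.07 with members at 0 counts set at their bound, that turned to -0.28 with median centring. These shares are near those of all genes. GATA6 (45.8-fold higher), GATA4 (22.3-fold higher) and HNF4A (30.9-fold higher), which gut and its organs keep, rose, and GSC (27.999-fold lower) and MIXL1 (4.07-fold lower), genes of gastrulation, fell. FOXA3, which is also used in gut organs, fell too (5.30-fold lower). That value is uncertain because an overlapping gene on the opposite strand holds more counts. Transcription factors of the lung bud rose in larger number. Of 29 tested lung progenitor genes 23 rose and 5 fell, and their median log2 change was 4.57, or 3.94 with members at 0 counts set at their bound, against 0.49 for all genes. FOXP4 had 357 and 369.6 CPM in LPO, against 25.5 and 26.0 CPM in PSC (14.1-fold higher, adjusted p = 1.1e-07), FOXP2 rose 56.1-fold and FOXP1 2.29-fold, and these 3 forkhead factors act together in airway epithelium. FOXA1 had 57.2 and 58.7 CPM in LPO, against 3.20 and 2.53 CPM in PSC (20.1-fold higher). Its partner FOXA2 had 39.1 and 42.1 CPM in LPO, against 8.63 and 10.2 CPM in PSC (4.31-fold higher). Among the T-box factors of lung mesoderm, TBX2 (at least 103-fold higher), TBX5 (at least 26.3-fold higher) and TBX4 (at least 11.3-fold higher) came up from 0 counts. ID2, a marker of bud tips and a BMP target, had 85.6 and 88.7 CPM in LPO, against 1.59 and 1.87 CPM in PSC (50.5-fold higher, adjusted p = 4.1e-08). Sonic hedgehog (SHH), which the bud epithelium secretes, had 16.3 and 18.4 CPM in LPO, against 0 and 0.178 CPM in PSC. The Iroquois factor IRX3 rose 23.8-fold and the tip factor NFIB 6.38-fold. The FGF targets ETV4 (2.50-fold) and ETV5 (1.80-fold), which bud tips also use, and MYCN fell, and FGFR2, the receptor for the FGF10 that draws buds out, had 63.2 and 63.1 CPM in LPO, against 93.0 and 100.1 CPM in PSC (log2 change -0.61, or 0.17 with equal FPKM sums).

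The surfactant genes SFTPB and SFTPC, the secretory gene SCGB3A2 and the ciliated cell gene FOXJ1 were low in LPO, although more of the mature lung list rose than fell. Of the 29 genes in that list 24 had an entry, and the secretory genes SCGB1A1, SCGB3A1, MUC5AC and MUC5B had none. Surfactant protein gene SFTPB had 4.61 and 4.18 CPM in LPO, against 0 in both PSC libraries (at least 13.4-fold higher). SFTPC had 0.262 and 0.441 CPM in LPO, against 0 in both PSC libraries, and SFTPD (with an overlapping neighbour at 33.3% of its count) and the water channel AQP5 were not called. SCGB3A2, a secretory protein of early airway, had 1.13 and 0.718 CPM in LPO, against 0 in both PSC libraries. FOXJ1, the factor of ciliated cells, had 0.586 and 0.982 CPM in LPO, against 0 in both PSC libraries. ABCA3, the lipid pump of type 2 cells, had 14.3 and 14.8 CPM in LPO, against 0.198 and 0.564 CPM in PSC (38.9-fold higher). The basal cell factor TP63 had 9.12 and 9.15 CPM in LPO, against 0.198 and 0.238 CPM in PSC (41.7-fold higher). Of 22 tested genes of mature lung epithelium 13 rose and 5 fell, with a median log2 change of 2.58, or 1.28 with members at 0 counts set at their bound, and 13 on in LPO at 1 FPKM. Those that fell were CHGA (14.8-fold lower), a granule protein, LPCAT1 (5.88-fold lower), TPPP3 (4.22-fold lower), PDPN (1.67-fold lower) and DNAI1 (5.96-fold lower). With genes under 5 FPKM left out, 2 rose and the list median was -1.20.

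Goblet and airway surface products included 1 gene that far exceeded the others. AGR2, a chaperone for mucin folding, had 728 and 740.4 CPM in LPO, against 1.93 and 0.951 CPM in PSC (498-fold higher, adjusted p = 2.2e-07), with 522 FPKM in LPO and 5.44 FPKM in AFE. WFDC2, a secreted protease inhibitor of airway, had 64.7 and 69.5 CPM in LPO, against 8.71 and 7.25 CPM in PSC (8.39-fold higher). The goblet regulator of chloride CLCA1 had 9.51 and 9.92 CPM in LPO, against 0 in both PSC libraries, and BPIFB1 fell (7.45-fold lower). In all, 12 of 16 tested members rose and 1 fell, and 10 of the 19 in the file had 0 counts in PSC. The chloride channel CFTR had 19.04 and 18.4 CPM in LPO, against 0.794 and 0 CPM in PSC (44.8-fold higher). Among 24 tested ion channels and transporters of epithelium 11 rose and 5 fell, which is near the 41.5% and 28.8% of all genes.

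Keratins of simple epithelium were abundant in both end stages, and further keratins came on in LPO. Of 13 tested keratins 9 rose and 1 fell. KRT8, the most abundant, had 2059 and 2135 CPM in LPO, against 1917 and 1774 CPM in PSC (1.14-fold higher). KRT18 had 516 and 559 CPM in LPO, against 1879 and 1881 CPM in PSC (3.501-fold lower). KRT19 had 989 and 1042 CPM in LPO, against 202 and 187 CPM in PSC (5.23-fold higher). KRT7, a keratin of ducts and airway, rose 5.46-fold, while KRT17 (at least 81.2-fold higher) and KRT5 (at least 31.2-fold higher), keratins of basal cells, appeared from 0 counts. The epithelial factors KLF5 (7.90-fold higher), KLF6 (25.4-fold higher), GRHL3 (10.6-fold higher) and EHF (11.4-fold higher) rose, among 13 of 21 barrier factors, and OVOL2 (3.28-fold lower), ESRP1 (1.28-fold lower) and GRHL2 fell. GRHL2 had 19.8 and 23.1 CPM in LPO, against 30.6 and 35.2 CPM in PSC, a difference that turned to a log2 change of 0.15 with equal FPKM sums. Of 34 tested junction genes 20 rose (58.8%) and 11 fell (32.4%), against 41.5% and 28.8% of all genes. Their median log2 change was 0.75, against 0.49 for all genes, and 0.11 when centred on genes of like length. The lung claudin CLDN18 (at least 34.4-fold higher), CLDN1 (69.3-fold higher), CLDN11 (25.7-fold higher), and the placental cadherin CDH3 (8.52-fold higher) rose, whereas CLDN7 (4.11-fold lower), PKP1 (17.5-fold lower) and EPCAM (1.39-fold lower) fell. EPCAM still had 279 and 291 CPM in LPO, against 389 and 402 CPM in PSC. F11R had 144 and 58.1 CPM in LPO, against 326 and 328 CPM in PSC, and its LPO libraries lay far apart.

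Basement membrane genes rose almost throughout. Of 28 tested genes 25 rose and 1 fell, with a median log2 change of 3.39. LAMA3, a laminin chain that anchors stratified and airway epithelium, rose, and had 99.0 and 99.3 CPM in LPO, against 0.298 and 0 CPM in PSC. Fibronectin (FN1) had 2707 and 2683 CPM in LPO, against 33.2 and 30.2 CPM in PSC (84.9-fold higher, adjusted p = 1.1e-08). SPARC had 1694 and 1704 CPM in LPO, against 113 and 112 CPM in PSC (15.2-fold higher, adjusted p = 2e-08), and nidogen 2 (NID2) rose 89.7-fold. LAMA5, the main laminin alpha chain of lung, rose 6.01-fold, with an overlapping neighbour at 32.2% of its count. LAMA1, the laminin chain of the early embryo, fell to 33.4 and 36.7 CPM in LPO, against 41.0 and 45.6 CPM in PSC (adjusted p = 0.013), was not called without LPO replicate 1 or PSC replicate 2, and turned to a log2 change of 0.40 with equal FPKM sums.

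Connective tissue genes were among the largest gains of the organoids. Of 26 tested collagen genes 23 rose, 1 fell and 2 were not called, with a median log2 change of 3.85, or 3.56 with members at 0 counts set at their bound, and a summed level of 2043 and 2090.1 FPKM in LPO, against 80.6 and 76.8 FPKM in PSC. COL1A1, a chain of type I collagen, had 1556 and 1609 CPM in LPO, against 6.50 and 5.23 CPM in PSC (269-fold higher). Its partner chain COL1A2 had 1467 and 1541 CPM in LPO, against 2.60 and 3.77 CPM in PSC (475-fold higher). COL12A1 (1778-fold higher) and COL5A2 (1118-fold higher) rose further, from under 1 CPM. COL17A1, a collagen of the epithelial anchoring plaque, had 53.6 and 51.6 CPM in LPO, against 0.0248 and 0 CPM in PSC. COL9A1 had 91.7 and 86.7 CPM in LPO, against 100.01 and 84.5 CPM in PSC and was not called, and COL21A1 fell (26.3-fold lower, adjusted p = 1.2e-05). Type IV chains of the basement membrane, COL4A1 (3.10-fold) and COL4A2 (8.18-fold), started from higher levels in PSC.

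Markers of fibroblast-type stroma rose in 21 of 25 tested members and fell in 1, with a median log2 change of 7.78, or 5.29 with members at 0 counts set at their bound, and a summed level of 1622 and 1647 FPKM in LPO, against 271 and 272 FPKM in PSC. PDGFRB, a growth factor receptor of stroma, had 341 and 359 CPM in LPO, against 0.819 and 0.416 CPM in PSC (552-fold higher, adjusted p = 5.7e-08). Its relative PDGFRA had 73.9 and 81.9 CPM in LPO, against 0.298 and 0 CPM in PSC. PRRX1, a factor of limb and lung mesenchyme, had 62.9 and 61.9 CPM in LPO, against 0.298 and 0.208 CPM in PSC (242-fold higher). Decorin (DCN) had 19.04 and 21.4 CPM in LPO, against 0 in both PSC libraries. TWIST1 had 29.0 and 28.3 CPM in LPO, against 0 in both PSC libraries. ZEB1, which drives epithelial to mesenchymal transition, rose at least 134-fold. The lung mesoderm factor FOXF1 had 11.7 and 11.7 CPM in LPO, against 0.0992 and 0 CPM in PSC. WNT5A had 23.6 and 25.7 CPM in LPO, against 0 and 0.238 CPM in PSC. Vimentin (VIM) was already high, with 2246 and 2312 CPM in LPO, against 808 and 836 CPM in PSC (2.77-fold higher), and makes up most of the PSC sum. TWIST2, the member that fell, had 0 and 0.0504 CPM in LPO, against 1.91 and 1.19 CPM in PSC, and was not called without LPO replicate 1 or PSC replicate 1. In bulk samples such as these, more cells of a type and more RNA per cell cannot be told apart.

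Markers of further cell types were less abundant. Smooth muscle genes rose in 8 of 14 and fell in 3 and summed to 417 and 410.1 FPKM in LPO, against 446 and 356 FPKM in PSC: TAGLN rose 3.89-fold and TPM2 fell 3.79-fold, and MYH11, the defining myosin, was not called and lies across a neighbour with far more counts. Cartilage, tendon and bone genes rose in 11 of 17 and fell in 1, with SPP1 on in LPO only, RUNX2 (uncertain, since an overlapping neighbour holds more counts) at 27.9 and 24.9 CPM in LPO, against 0.694 and 0.951 CPM in PSC and ACAN at 0.748 and 0.101 CPM in LPO, against 15.0 and 7.81 CPM in PSC. Heart and lateral mesoderm genes rose in 9 of 14 and summed to only 20.7 and 22.4 FPKM in LPO, against 6.07 and 6.35 FPKM in PSC. Endothelial genes rose in 9 of 14, with KDR at 33.9 and 29.9 CPM in LPO, against 0.620 and 0 CPM in PSC. But the defining CDH5 had 0.337 and 0.592 CPM in LPO, against 0 in both PSC libraries and VWF 1.15 and 0.919 CPM in LPO, against 0 in both PSC libraries. Of 15 tested blood and immune genes 7 rose (46.7%, near the 41.5% of all genes) and 0 fell, against 28.8% of all genes. Yet PTPRC, which all white cells carry, had 0.0499 and 0 CPM in LPO, against 0.595 and 0.357 CPM in PSC. RUNX1 had 43.4 and 38.1 CPM in LPO, against 0 in both PSC libraries and CD68 22.4 and 24.8 CPM in LPO, against 0.992 and 1.34 CPM in PSC, and both are also found outside blood.

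Genes of organs next to the lung were partly present. In the gut list 8 of 17 rose, with CDH17 at 40.9 and 39.2 CPM in LPO, against 0 in both PSC libraries (at least 122-fold higher) and CDX2 at 0.823 and 0.667 CPM in LPO, against 0 in both PSC libraries, but only 3 to 4 rose without LPO replicate 1, LPO replicate 2 or PSC replicate 2. In the liver and pancreas list 9 of 18 rose (50.0%, against 41.5% of all genes) and 1 fell, and only 3 members were on in LPO at 1 FPKM. With members at 0 counts set at their bound, the list median was 0.23, against 0.20 for all genes. TTR, APOA2, APOC3 and AHSG had 0 counts in all 4 libraries. Thyroid, thymus and pharynx genes rose in 7 of 11 and fell in 0, among them PAX9 (uncertain, with an overlapping neighbour at 47.5% of its count), while TG (uncertain, with an overlapping neighbour at 67.7% of its count) and FOXE1, which thyroid uses, were not called. Trophoblast and extraembryonic genes rose in 13 of 16 and fell in 2, among them GATA3 (132-fold higher), DAB2 (46.7-fold higher) and KRT7, which epithelia of many organs share. Neural genes rose in 7 of 15 and fell in 5, with NCAM1 up (38.5-fold higher) and TUBB3 (20.8-fold lower), STMN2 (10.36-fold lower) and ELAVL3 (31.4-fold lower) down. The neural shares and the gut share that rose are near those of all genes, 41.5% higher and 28.8% lower. How far each of these cell types moves the other groups was not tested.

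**Figure D3:**
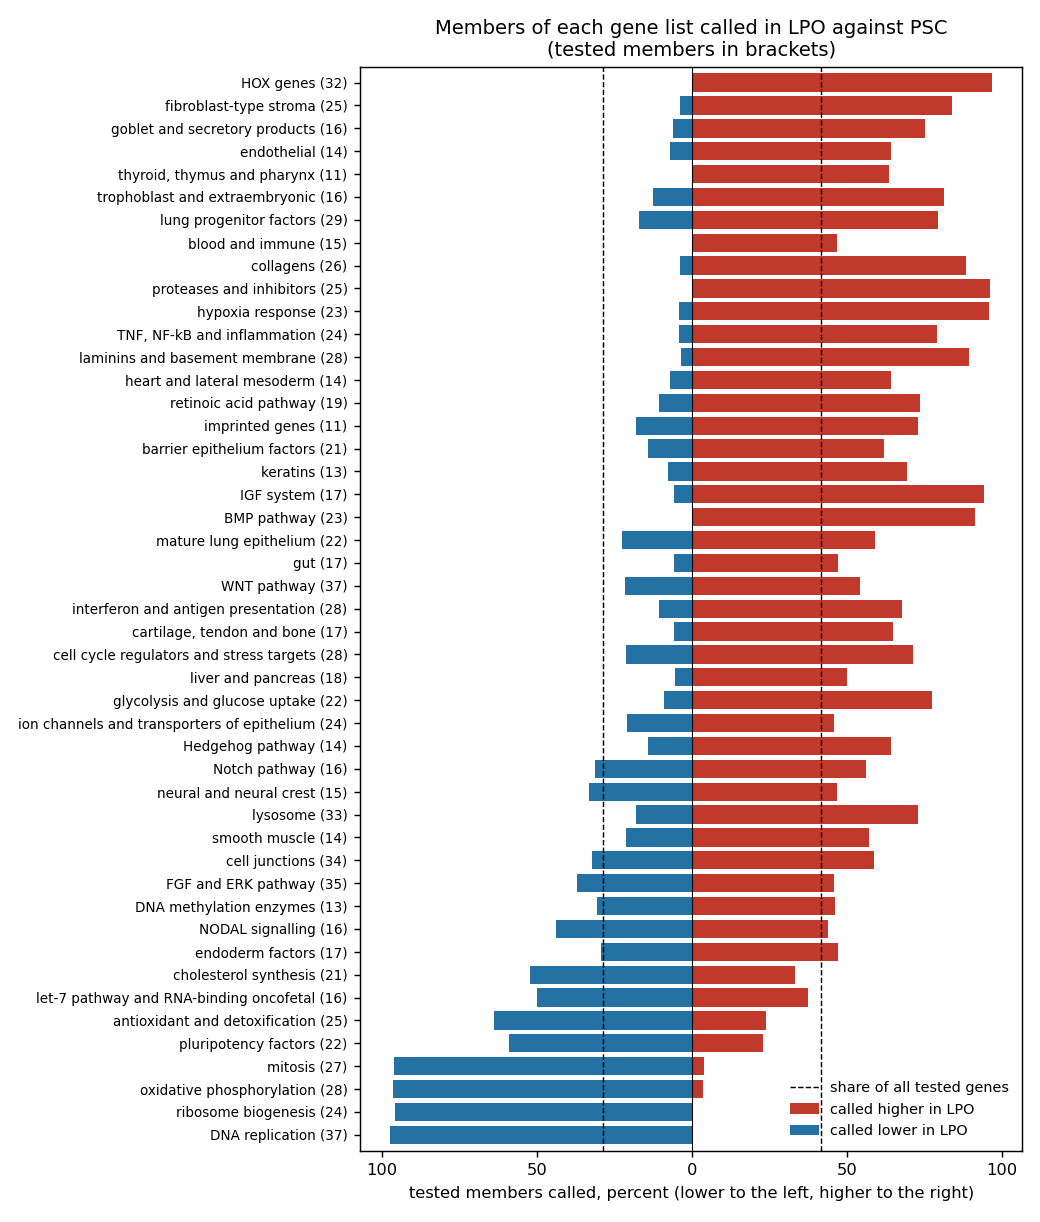
Share of the tested members of each of the 47 gene lists called higher (red, to the right) or lower (blue, to the left) in LPO against PSC, ordered by median log2 change with the highest on top. Dashed lines mark the shares over all tested genes, 41.5% higher and 28.8% lower. HOX genes, at the top, have 31 of 32 members higher, and the DNA replication list, at the bottom, has 36 of 37 lower.

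Matrix-cutting enzymes and their inhibitors rose. Of 25 tested members 24 rose and 0 fell, with a median log2 change of 3.85, or 3.34 with members at 0 counts set at their bound. MMP7, which lung and gut epithelium secretes, had 288 and 288 CPM in LPO, against 0 in both PSC libraries (at least 881-fold higher). The collagenase MMP13 had 237 and 228 CPM in LPO, against 0 and 0.832 CPM in PSC (603-fold higher). Plasminogen activators rose as well, PLAT to 682 and 709 CPM in LPO, against 30.8 and 25.6 CPM in PSC (adjusted p = 4.5e-08), and PLAU to 65.6 and 66.4 CPM in LPO, against 0 and 0.594 CPM in PSC (239-fold higher). The inhibitors TIMP3 (174-fold higher) and TIMP1 (12.3-fold higher) rose. Tested genes of the insulin-like growth factor system behaved alike, with 16 of 17 higher. The growth factors themselves are not among these 17. Binding proteins led: IGFBP2 had 909.9 and 944 CPM in LPO, against 117 and 111 CPM in PSC (8.11-fold higher, adjusted p = 4e-08). IGFBP5 had 724 and 728 CPM in LPO, against 7.69 and 5.26 CPM in PSC (111-fold higher, adjusted p = 7.9e-08) and IGFBP4 rose 18.9-fold, and the receptors IGF1R (4.90-fold higher) and IGF2R (8.21-fold higher) rose. The RNA-binding protein IGF2BP1 was the member that fell (2.14-fold lower). Imprinted genes, expressed from 1 parental copy, rose in 8 of 11 and fell in 2: PEG3 (at least 14.7-fold higher) and CDKN1C (2.87-fold higher) rose and GRB10 fell (4.09-fold lower).

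BMP signalling, which patterns ventral foregut and lung, had many members that rose and none that fell. Of 23 tested members 21 rose and 0 fell, with a median log2 change of 2.61, or 2.33 with members at 0 counts set at their bound. The ligand BMP4 had 47.5 and 46.9 CPM in LPO, against 1.29 and 0.832 CPM in PSC (43.8-fold higher, adjusted p = 7.5e-07). BMP5 had 12.3 and 13.2 CPM in LPO, against 0 in both PSC libraries. Receptors BMPR2 (6.09-fold higher) and BMPR1A (2.35-fold higher) and the transducer SMAD1 (7.93-fold higher) rose. So did the response genes: ID3 had 187 and 197 CPM in LPO, against 17.4 and 16.0 CPM in PSC (11.5-fold higher, adjusted p = 4.1e-08), and the inhibitor SMAD6 rose 10.35-fold. In mean FPKM, ID3 had 269 in LPO and 630.4 in DE, and BMP4 had 36.8 in LPO and 118 in DE. The antagonists CHRD (3.32-fold higher) and NOG (at least 3.91-fold higher) were called too, CHRD with an overlapping neighbour at 49.3% of its count.

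Retinoic acid genes rose in 14 of 19 and fell in 2, with a median of 3.22, or 2.91 with members at 0 counts set at their bound. The synthesising enzyme ALDH1A1 had 51.5 and 52.0 CPM in LPO, against 0.446 and 0.357 CPM in PSC (127-fold higher, adjusted p = 4.5e-08). ALDH1A2, the enzyme of embryonic mesoderm, had 9.98 and 9.16 CPM in LPO, against 0.198 and 0 CPM in PSC. DHRS3, which turns retinal back to retinol, had 328 and 336 CPM in LPO, against 11.5 and 13.8 CPM in PSC (26.3-fold higher, adjusted p = 4.3e-08), TGM2 rose 29.6-fold and the receptors RARA (9.32-fold higher) and RARB (30.6-fold higher) rose, RARB with an overlapping neighbour that holds more counts. CYP26A1, the breakdown enzyme of early embryos, had 11.3 and 10.9 CPM in LPO, against 11.4 and 14.1 CPM in PSC and was not called, while its relative CYP26B1 was on in LPO only. CYP26C1 fell (10.2-fold lower).

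WNT pathway genes rose in 20 of 37 (54.1%) and fell in 8 (21.6%), against 41.5% and 28.8% of all genes. Their median log2 change was 2.14, or 1.62 with members at 0 counts set at their bound. Other ligands were on in LPO than in PSC. WNT8A had 0 in both LPO libraries, against 9.35 and 11.02 CPM in PSC (at least 67.8-fold lower). RSPO1, which boosts WNT signals, had 0 in both LPO libraries, against 16.97 and 16.4 CPM in PSC (at least 111-fold lower). WNT5A, WNT11 (41.2-fold higher), RSPO3 (at least 38.8-fold higher) and WNT7B (higher, ratio 48.2 with a 95% counting interval of 13.2 to 401) rose instead. LEF1 and AXIN2, often read as targets of the pathway, rose: LEF1 had 71.4 and 69.1 CPM in LPO, against 0.198 and 0.713 CPM in PSC (159.7-fold higher, adjusted p = 7.6e-07). AXIN2 had 56.7 and 55.2 CPM in LPO, against 13.7 and 11.6 CPM in PSC (4.42-fold higher, adjusted p = 3.1e-06). The receptors LGR4 (7.26-fold) and FZD7 (2.44-fold) rose and FZD5 fell (10.3-fold lower). SFRP1, SFRP2 and SFRP5, which bind WNT outside the cell, fell 1.94-fold, 4.04-fold and 20.1-fold.

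FGF and ERK genes were split, 16 higher and 13 lower of 35, and 9 and 10 rose without LPO replicate 1 and LPO replicate 2. The share that rose is near that of all genes. The ligands FGF17 (64.0-fold lower) and FGF19 (9.51-fold lower) fell with FGF8, and FGF2 rose (5.71-fold higher). Among receptors EGFR had 171 and 167 CPM in LPO, against 12.3 and 12.9 CPM in PSC (13.4-fold higher, adjusted p = 1.3e-07), FGFR3 rose 4.57-fold and FGFR1 1.88-fold, and ERBB2 (2.18-fold lower) and ERBB3 (1.96-fold lower) fell. Hedgehog genes rose in 9 of 14 and fell in 2: GLI3 (17.995-fold higher) and SUFU (18.6-fold higher) rose and the decoy HHIP fell (6.67-fold lower). The target gene GLI1 had 18.1 and 17.6 CPM in LPO, against 13.7 and 12.9 CPM in PSC and was not called, with an overlapping neighbour at 47.2% of its count, and PTCH1 rose only 1.20-fold. GLI2 had 10.5 and 11.8 CPM in LPO, against 17.2 and 18.3 CPM in PSC (adjusted p = 0.043), was not called when any 1 of the LPO, PSC or AFE libraries was left out, and turned to a log2 change of 0.088 with equal FPKM sums. Notch genes rose in 9 of 16, among them NOTCH2 (7.01-fold higher), NOTCH3 (3.83-fold higher), JAG1 (3.504-fold higher) and the target HES1 (7.20-fold higher), and fell in 5, a count that was 2, 1, 2 and 3 without LPO replicate 1, LPO replicate 2, PSC replicate 1 and PSC replicate 2.

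HOX genes, which give cells their position along the body axis, were low or at 0 in PSC and on in LPO from all 4 clusters. The 35 HOX genes in the file summed to 639 and 652 FPKM in LPO, against 0.810 and 1.15 FPKM in PSC, and 28 of the 35 had 0 counts in both PSC libraries. Of 32 tested genes 31 rose and 0 fell, with a median log2 change of 11.36, or 5.37 with members at 0 counts set at their bound, and 28 were on in LPO. HOXB6 had 156 and 167 FPKM in LPO, against 0 in both PSC libraries, HOXB9 had 64.7 and 66.1 FPKM in LPO, against 0 in both PSC libraries and HOXB3 had 60.0 and 58.5 FPKM in LPO, against 0 in both PSC libraries. HOXB8 followed with 52.1 and 52.9 FPKM in LPO, against 0 in both PSC libraries, and in the HOXC cluster HOXC5 was highest with 38.6 and 38.7 FPKM in LPO, against 0.0300 and 0 FPKM in PSC. HOXA5, which the lung needs in the mouse, had 102 and 114 CPM in LPO, against 0.769 and 1.28 CPM in PSC (106-fold higher, adjusted p = 2.5e-07) and 20.2 and 22.5 FPKM in LPO, against 0.120 and 0.180 FPKM in PSC. Levels were low towards the posterior end of the HOXA, HOXC and HOXD clusters. HOXA10 had 1.19 and 1.16 FPKM in LPO, against 0 in both PSC libraries, and HOXC10 had 1.27 and 1.57 FPKM in LPO, against 0 in both PSC libraries. HOXD10 had 0.550 and 0.220 FPKM in LPO, against 0 in both PSC libraries, and HOXD13 was not called. In the HOXB cluster HOXB9 stood above HOXB3 and HOXB8, and HOXB13 was among the genes on in LPO only. HOXB6 and HOXB9 had 4.49 and 3.85 FPKM in DE and 4.25 and 4.59 FPKM in AFE.

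**Figure D4:**
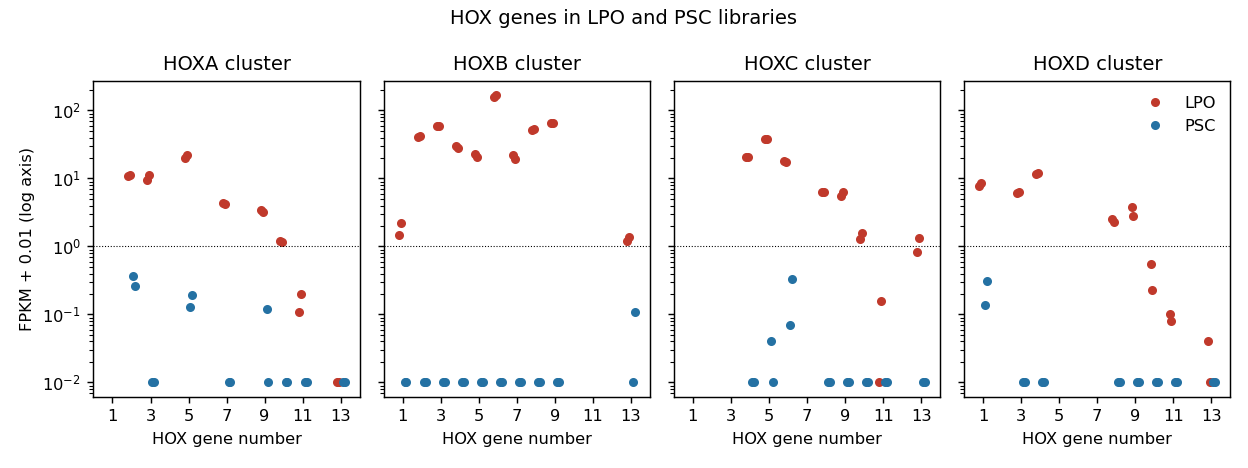
FPKM (log axis, with 0.01 added) of the HOX genes reported here, in the 4 clusters by gene number, with LPO libraries in red on the left and PSC libraries in blue on the right. The dotted line marks 1 FPKM. HOXB6 stands highest in LPO with 162 FPKM on average, the genes numbered 10 to 13 lie near or below the line, and no PSC value reaches it.

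Genes of cell division fell almost without exception. Of 37 tested DNA replication genes 36 fell and 0 rose, with a median log2 change of -2.62 against 0.49 for all genes. PCNA, the clamp that holds the polymerase on DNA, had 15.0 and 16.3 CPM in LPO, against 267 and 299.5 CPM in PSC (18.1-fold lower, adjusted p = 5.1e-08). RRM1, which makes the DNA building blocks, had 49.7 and 49.6 CPM in LPO, against 306 and 304 CPM in PSC (6.14-fold lower, adjusted p = 4.9e-08), and MCM2, part of the helicase, fell 14.1-fold, with an overlapping neighbour at 22.3% of its count. Of 27 mitosis genes 26 fell and only the motor KIF11 rose (1.47-fold higher, log2 change 0.56, or 0.07 with median centring). CDC20 had 31.7 and 33.0 CPM in LPO, against 502 and 507 CPM in PSC (15.6-fold lower, adjusted p = 3.3e-08). CCNB1 had 24.7 and 26.7 CPM in LPO, against 284 and 286 CPM in PSC (11.1-fold lower, adjusted p = 4.1e-08). All the mitosis and replication genes stayed on in LPO at 1 FPKM or more.

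Brakes on the cell cycle moved against them. Of 28 cell cycle regulators and stress targets 20 rose and 6 fell. CDKN1A (p21) had 194 and 191 CPM in LPO, against 12.1 and 12.2 CPM in PSC (15.8-fold higher, adjusted p = 4.8e-08). CDKN2B (p15) had 31.6 and 37.3 CPM in LPO, against 0 in both PSC libraries (at least 105-fold higher). Its neighbour CDKN2A had 1.10 and 1.08 CPM in LPO, against 0 in both PSC libraries. RB1 (17.5-fold higher) and CDKN1B (6.65-fold higher) rose, RB1 with an overlapping neighbour that holds more counts. BAX, which promotes cell death, fell (4.15-fold lower). Cyclins split as well, with CCND2 (10.7-fold higher) and CCND1 (1.73-fold higher) up and CCNE1 down (8.31-fold lower).

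Ribosome assembly and mitochondrial respiration fell to a like extent. Of 24 ribosome biogenesis genes 23 fell and 0 rose, with a median log2 change of -2.51. NOP56, a core protein of RNA-modifying particles, had 39.5 and 33.1 CPM in LPO, against 1344 and 1573 CPM in PSC (40.2-fold lower, with an overlapping neighbour at 29.3% of its count). Fibrillarin (FBL) had 33.8 and 38.7 CPM in LPO, against 931 and 753 CPM in PSC (23.2-fold lower, adjusted p = 7.6e-08). Nucleophosmin (NPM1) had 923 and 895 CPM in LPO, against 2634 and 2528 CPM in PSC (2.84-fold lower). Ribosomal protein genes took 6.51% and 6.54% of the counts in LPO, against 13.0% and 13.5% in PSC. Of 28 oxidative phosphorylation genes 27 fell, with a median of -2.48. Cytochrome c (CYCS) had 21.5 and 23.0 CPM in LPO, against 611 and 648 CPM in PSC (28.2-fold lower, adjusted p = 3.3e-08). The ATP synthase subunit ATP5F1A had 404 and 399 CPM in LPO, against 2245 and 2411 CPM in PSC (5.80-fold lower, adjusted p = 4.1e-08) and COX5B fell 16.0-fold. The member that rose was PPARGC1A (3.82 and 3.91 CPM in LPO, against 0.546 and 0.238 CPM in PSC), the coactivator of mitochondrial genes. After centring on genes of like transcript length, the medians were -3.00 for ribosome biogenesis and -2.75 for oxidative phosphorylation.

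Glycolysis and the response to low oxygen went the other way. Of 22 glycolysis and glucose uptake genes 17 rose and 2 fell, and together they summed to 15353 and 15429 FPKM in LPO, against 8125 and 7474 FPKM in PSC. The glucose transporter SLC2A1 had 857 and 873 CPM in LPO, against 72.7 and 64.3 CPM in PSC (12.6-fold higher, adjusted p = 5.2e-08). The regulator PFKFB3 had 715 and 735 CPM in LPO, against 4.86 and 4.04 CPM in PSC (162-fold higher, adjusted p = 3.8e-07). LDHA, which makes lactate, had 1648 and 1656 CPM in LPO, against 267 and 275 CPM in PSC (6.10-fold higher). The lactate exporter SLC16A3 rose 22.2-fold and HK2 7.32-fold. TPI1 fell (1.46-fold lower), and turned to a log2 change of 0.25 with equal FPKM sums, and LDHB fell 6.94-fold. Of 23 hypoxia response genes 22 rose and 1 fell, with a median log2 change of 3.66 and sums of 4140.4 and 4180.1 FPKM in LPO, against 249.6 and 241 FPKM in PSC. VEGFA, which draws in vessels, had 554 and 560.1 CPM in LPO, against 3.13 and 3.00 CPM in PSC (182-fold higher, adjusted p = 1.5e-08). Adrenomedullin (ADM) had 127 and 127 CPM in LPO, against 0.248 and 0.386 CPM in PSC (404-fold higher, adjusted p = 3.5e-08). NDRG1 had 1223 and 1271 CPM in LPO, against 5.06 and 2.73 CPM in PSC (316-fold higher). BNIP3, which marks mitochondria for removal, had 1085 and 1123 CPM in LPO, against 66.8 and 68.8 CPM in PSC (16.3-fold higher), and the oxygen sensors EGLN1 (4.12-fold higher) and EGLN3 (3.95-fold higher) rose. The carbonic anhydrase CA9 alone fell, to 5.84 and 6.58 CPM in LPO, against 34.5 and 37.5 CPM in PSC (5.80-fold lower). In mean FPKM, SLC2A1 had 461 in LPO and 647 in DE, whereas VEGFA had 242 in LPO and 24.8 in DE, and PFKFB3 had 137 in LPO and 24.6 in DE.

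**Figure D5:**
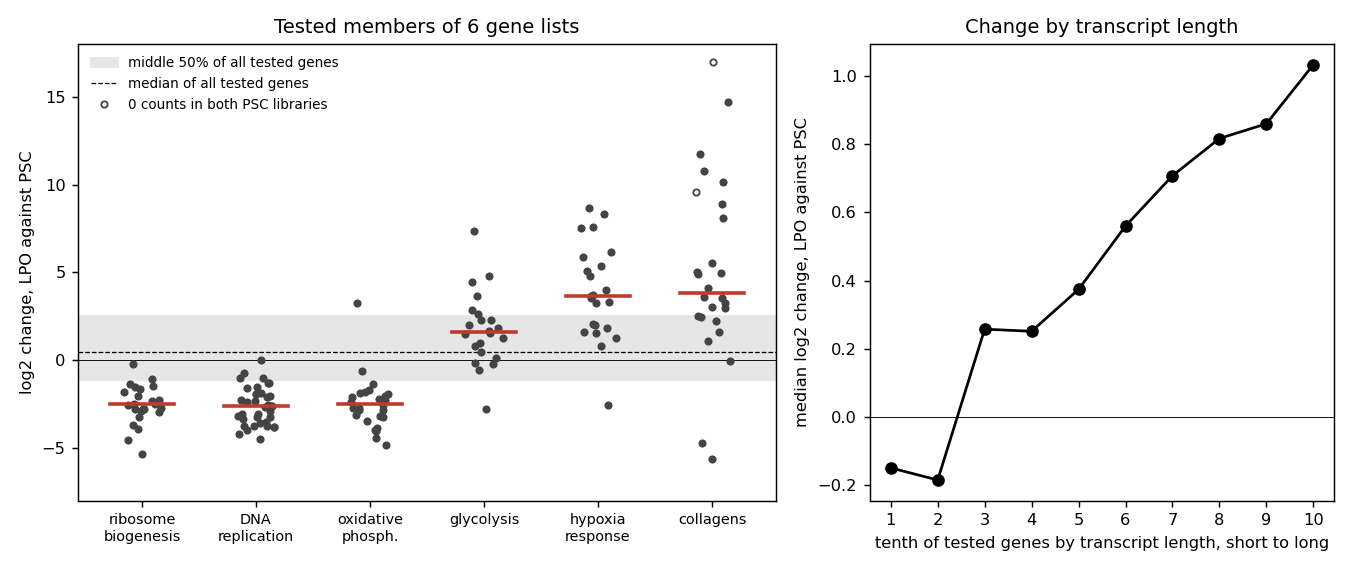
Left, log2 change of each tested member of 6 gene lists, LPO against PSC, with the list median in red, the median of all tested genes dashed and their middle 50% shaded; open circles are genes with 0 counts in PSC, whose fitted value is no measured fold. Right, median log2 change in 10 equal bins of the tested genes by transcript length, from -0.15 in the shortest to 1.03 in the longest. Ribosome, replication and respiration genes lie below the shaded band on median, and hypoxia and collagen genes above it.

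Inflammatory genes of the TNF and NF-kB pathway rose in 19 of 24 and fell in 1, with a median of 3.56, or 3.18 with members at 0 counts set at their bound. The feedback inhibitor NFKBIA had 106 and 104 CPM in LPO, against 8.73 and 8.14 CPM in PSC (12.4-fold higher, adjusted p = 8.8e-08). The adhesion molecule ICAM1 had 86.2 and 90.4 CPM in LPO, against 2.65 and 2.82 CPM in PSC (32.2-fold higher, adjusted p = 1e-07). TNF had 1.70 and 2.72 CPM in LPO, against 0 in both PSC libraries. The chemokines CXCL2 (at least 60.1-fold higher) and CXCL10 (at least 31.1-fold higher) were on with CXCL8 and CCL2, and SOD2, often induced by TNF, fell (4.66-fold lower). Interferon and antigen presentation genes rose in 19 of 28 and fell in 3. IFI44L had 42.8 and 40.0 CPM in LPO, against 0 in both PSC libraries (at least 127-fold higher) and B2M rose 5.34-fold, whereas ISG15 had 3.22 and 2.58 CPM in LPO, against 0.322 and 0.772 CPM in PSC. TAP2 fell (3.5995-fold lower), and OAS2 fell to 8.44 and 11.04 CPM in LPO, against 15.7 and 17.6 CPM in PSC (adjusted p = 0.0086), but was not called without LPO replicate 1 and turned to a log2 change of 0.0040 with equal FPKM sums.

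Lysosome genes rose in 24 of 33 and fell in 6. LAMP2 had 365 and 365 CPM in LPO, against 26.5 and 26.7 CPM in PSC (13.7-fold higher, adjusted p = 3.3e-08), prosaposin (PSAP) rose 4.11-fold and the master factor TFEB had 11.3 and 11.9 CPM in LPO, against 0 in both PSC libraries. CTSL (10.9-fold lower) and CD63 (2.56-fold lower) fell. Antioxidant and detoxification genes went mostly down, 16 of 25 lower and 6 higher, with a median of -0.83. PRDX1 had 128 and 133 CPM in LPO, against 1543 and 1714 CPM in PSC (12.5-fold lower, adjusted p = 3.9e-08), SOD1 fell 11.7-fold, and both have overlapping neighbours, at 20.7% and 25.1% of their counts. CYP1A1, a target of the dioxin receptor, had 6.48 and 5.29 CPM in LPO, against 693 and 634 CPM in PSC (113-fold lower, adjusted p = 4.1e-08), while CYP1B1, its relative, had 73.6 and 79.0 CPM in LPO, against 3.40 and 5.85 CPM in PSC (16.6-fold higher). Cholesterol synthesis genes fell in 11 of 21 and rose in 7, and the median of -0.43 turned to 0.36 with equal FPKM sums. FDPS (31.8-fold lower), IDI1 (9.50-fold lower) and PMVK (13.7-fold lower), which act on the isoprenoid part of the route, fell.

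Among the most abundant genes, those of ribosomal proteins moved both ways, and EEF1A1 and GAPDH were not called. EEF1A1, the elongation factor of translation, had 15737 and 15769 CPM in LPO, against 16288 and 17629.5 CPM in PSC (adjusted p = 0.088). GAPDH had 6289 and 6304 CPM in LPO, against 7393 and 7025 CPM in PSC (adjusted p = 0.13). DESeq2 and median centring called both lower, and the log2 changes of -0.11 and -0.20 turned to 0.69 and 0.60 with equal FPKM sums. Among ribosomal protein genes RPLP0 (3.30-fold lower), RPS3A (2.90-fold lower) and RPL6 (2.44-fold lower) fell, and RPL13A rose, with 2140.3 and 2181 CPM in LPO, against 1047 and 886 CPM in PSC (2.24-fold higher, adjusted p = 6.6e-06).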

How the data were processed

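RNA of 8 libraries, 2 of each of 4 stages, was taken up in Trizol, selected with oligo(dT) beads and sequenced as stranded paired-end libraries on an Illumina NovaSeq, per the labels' protocols. Tools listed, with no roles, per the submitters' processing notes are StringTie 2.1.6, edgeR, DESeq2, HISAT2 2.2.1 and cutadapt 1.9. The deposited table holds, for each of 25578 genes, expected counts and FPKM (fragments per kilobase of transcript and 1e6 fragments) made by the authors; the expected counts are whole numbers, in steps of about 4 per read pair, and dividing them by 4 was tried as an alternative. Library columns named for pluripotent cells and organoids were matched to PSC and LPO by name, and no column of another series was present. The table gave no symbol for 10013 genes, after 130 were filled from a gene name list.

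edgeR 4.0.16 (R 4.3.3) was fitted to the counts of all 8 libraries with TMM scaling, its default filter on low counts and 4 stage groups, which leaves 4 residual degrees of freedom, and LPO was contrasted with PSC. In simulated data of the same 19346 genes, 100 genes were changed by 1 on the log2 scale and 100 by 2, all with a mean over 1 CPM. Of these, 68% and 92% were called. In the real data 70.3% of all tested genes were called, so these shares need not carry over. The alternatives were DESeq2 1.42.0, limma 3.58.1 on log2(FPKM + 1), on log2(FPKM + 0.1) and on FPKM scaled to equal sums, other scalings and filters, the replicate number as a block, and each library left out.

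Named genes are the markers, the 10 largest rises and 10 largest falls at 5 FPKM or more, the 15 highest genes on in each end stage only, from each list the 4 called genes of lowest adjusted p and 2 called against its majority, paralog pairs with opposite calls, the 5 most abundant genes per end stage and the 3 genes most like each marker. Some genes are not reported here. Other genes given were chosen after their values were seen. Members and all 47 gene lists (955 genes tested) were chosen with earlier results of these data known. Near-identical gene copies may share reads. Overlapping genes are given as uncertain, since the sources used here do not give the strand setting of the counting.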

Additional observations from a re-analysis of the deposited data

Results flagged for a closer look

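Some genes were on only in the stages between. In DE, 37 genes (25 with a symbol) reached 1 FPKM in both libraries while each LPO and PSC library had at most 12 counts. The highest was NPPA, a hormone of heart muscle, with 43.27 and 22.61 FPKM in DE. In AFE, 25 genes (12 with a symbol) did so. The highest was CPN1, a plasma carboxypeptidase subunit, with 8.41 and 9.24 FPKM in AFE. These libraries entered the model but no comparison, and the genes drew attention as signal outside the end stages.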

How the results depend on the processing

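With only genes of 5 FPKM or more in 2 libraries, 4830 genes rose. Counts divided by 4 gave 7749 higher and 5689 lower. A fit of the LPO and PSC libraries alone gave 7792 and 5872, with a median shift per gene of -0.11 on the log2 scale, as had DESeq2 and its size factors. Genes on in LPO only numbered 222 at 5 FPKM in both libraries and 437 with 0 counts required in PSC. Genes on in PSC only numbered 40 and 61 by the same changes and 92 among genes with a symbol. Leaving out 1 library gave 863 to 1068 genes on in LPO only and 170 to 187 on in PSC only. The rule then asks for fewer libraries, so these sets can only grow, and the ranges do not show how stable the sets are. Calls opposite in sign to the main ones numbered 397 with equal FPKM sums, 43 with median centring, 7 with limma on each pseudocount and 0 in the other fits. No pairing by replicate number showed across all tested genes: deviations of the same number in LPO and PSC correlated at -0.0085, and over all pairs of stages from -0.0085 to 0.018. With 2 libraries a stage, this cannot decide whether libraries of the same number share a culture or batch. A fit with the replicate number as a block called 7314 genes higher and 5282 lower, with 12534 of the 13602 calls shared.

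Under equal FPKM sums the sign of some named genes turned: log2 changes were 0.64 for ACTG1, 0.32 for CDH1, 0.69 for EEF1A1, 0.17 for FGFR2, 0.60 for GAPDH, 0.088 for GLI2, 0.15 for GRHL2, 0.40 for LAMA1, 0.0040 for OAS2 and 0.25 for TPI1. On log2(FPKM + 0.1) and log2(FPKM + 1) they were 0.25 and 0.25 for ACTG1, 0.30 and 0.30 for EEF1A1, and 0.10 and 0.086 for LAMA1. ACTG1 had 0.050 with the 5 FPKM filter. HES4 was not called without LPO replicate 1, LPO replicate 2 or PSC replicate 2. List medians turned sign as follows: with the 5 FPKM filter, -4.18 for NODAL signalling, -0.23 for FGF and ERK and -1.20 for mature lung. With median centring they were -0.19 for DNA methylation, -0.20 for NODAL signalling and -0.28 for endoderm. Centring on genes of like length, chosen after seeing the data, gave -0.076 for DNA methylation, -0.21 for FGF and ERK and -0.54 for NODAL signalling. Equal FPKM sums gave 0.36 for cholesterol synthesis and 0.13 for the let-7 list. Over the 47 list medians under each alternative, 776 other values moved by at most 0.5 and 153 by more. The causes were not tested. Depth limits genes near 12 counts, and more so in PSC.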
